A study of Mus musculus with 24 samples.

Results

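Zinc finger protein (Zfp) genes form one of the largest families of genes for DNA-binding proteins in the mouse, and their transcripts were followed here in resting and LPS-treated macrophages with and without *Olfml3*. The members were the genes with a symbol made of Zfp and a number, without the mRNA decay factor Zfp36, that reached a mean of at least 1 FPKM (fragments scaled to exon length and library size) over the 3 wild-type PBS libraries of RAW264.7 cells or of BMDMs. This rule took 250 of 379 Zfp symbols in tables of 56691 genes. Of these, 196 passed in both cell types, 22 in RAW264.7 alone and 32 in BMDMs alone, and 129 Zfp genes stayed outside. The members were thus chosen by their measured levels in the wild-type PBS libraries, which are given as a description with no test.

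Bulk RNA-seq was analysed from 24 libraries, 3 in each of 8 groups. RAW264.7 is a macrophage-like mouse line of BALB/c origin, and its *Olfml3*-/- cells were CRISPR/Cas9 cells grown from single cells, so clone and genotype cannot be told apart. BMDMs (bone marrow-derived macrophages) came from 8-week-old male *Olfml3*+/+ mice or from global *Olfml3*-/- mice on a C57BL/6 background, after 6 days of culture in medium with L929 cell supernatant. Each genotype received PBS or LPS (lipopolysaccharide of Gram-negative bacteria) at 100 ng/mL for 4 h. The study calls the 3 libraries of a group biological replicates and does not say whether they came from separate cultures or animals. The p-values thus measure the spread between libraries, which was pooled over all 12 libraries of a cell type in every comparison. In BMDMs *Olfml3* was lower in the knockout, at 0.53 to 0.65 FPKM in wild-type PBS libraries and 0.01 to 0.03 in knockout ones. In RAW264.7 it was higher under the knockout label, at 0.15 to 0.19 FPKM in wild-type PBS libraries and 0.65 to 1.19 in those labelled knockout. With LPS it was at 0.13 to 0.29 and 18.33 to 18.93. The study characterized the mutations of its knockout clones by Sanger sequencing, and their effect on this RNA was not tested. RAW264.7 groups are therefore called wild type and labelled knockout throughout, and the direction of every RAW264.7 genotype difference rests on those labels.

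Most proteins of this family bind DNA through rows of C2H2 fingers, short loops that each hold a zinc ion between a pair of cysteines and a pair of histidines and touch a few bases. Many carry an amino-terminal KRAB domain, which recruits the co-repressor Trim28 (KAP1), the histone H3 lysine methyltransferase Setdb1 and heterochromatin proteins, and so silences retroelements and imprinted genes. Others activate transcription, bind RNA or modify proteins, and the genes lie in clusters that arose by tandem duplication. In macrophages, LPS binds the receptor Tlr4 and switches on NF-kB and interferon programmes, with broad repression of other transcripts.

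The libraries held 11638273 to 16478616 counts in RAW264.7 and 17121240 to 22873094 in BMDMs. The members took 0.502 to 0.844% and 0.306 to 0.551% of them, with a median count per member between 90 and 291 in a library. Of 8 macrophage markers, 7 reached 1 FPKM in RAW264.7, where Mertk was at 0 in all libraries, and all 8 did in BMDMs. Their summed level was 3064 to 3088 FPKM in wild-type RAW264.7 with PBS and 1161 to 1436 in those labelled knockout, and 2975 to 3116 and 1037 to 1081 with LPS. Most of this gap is Lyz2, at 2039 to 2078 FPKM in wild type with PBS and 259 to 408 in those labelled knockout. Adgre1 (10.53 to 11.08 against 4.31 to 5.2), Itgam (6.16 to 6.88 against 1.57 to 2.05) and Cd68 (572 to 585 against 414 to 531) were also lower with PBS. Csf1r was higher, at 254.0 to 268 and 314 to 354, and Spi1 and Fcgr1 overlapped. With LPS each of the 7 was lower in those labelled knockout, without overlap. Of the dendritic cell markers, Siglech had 0.97 to 1.28 FPKM in wild-type RAW264.7 with PBS and 8.45 to 9.72 in those labelled knockout, and Flt3 was at 0 there. Markers of T, B and NK cells, fibroblasts and erythroid cells summed to at most 1.31 FPKM in every group. Those of neutrophils and precursors summed to 4.58 to 7.99 FPKM in BMDMs, from S100a8 and S100a9 with Ly6g at 0, and to at most 0.20 in RAW264.7. The part of these markers in the Zfp differences was not tested. The sum of Tnf, Il1b, Il6, Nfkbia and Cxcl10 was at most 99.2 FPKM in every PBS library and at least 2833 in every LPS library. Replicate 1 of the PBS group labelled knockout in RAW264.7 stood apart from its replicates 2 and 3. Counts by genotype with PBS and by LPS under the knockout label are given with and without it. Single genes are given without it in part, and the overlap with BMDMs only with it. Library differences in bulk RNA cannot tell fewer cells of a kind from less RNA per cell.

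The 250 bases before the annotated start are shown for 3 of the members that the results turn on, Zfp800 and Zfp281, which rose after LPS in BMDMs, and Zfp809, which was higher in both cell types under the knockout label with LPS. They are from RefSeq on GRCm38.p6, read in the direction of the gene, with each CG dinucleotide in capitals. Zfp800 lies on chromosome 6 (chr6:28398006-28398255, minus strand), Zfp281 on chromosome 1 (chr1:136624651-136624900, plus strand) and Zfp809 on chromosome 9 (chr9:22225453-22225702, plus strand).
Zfp800: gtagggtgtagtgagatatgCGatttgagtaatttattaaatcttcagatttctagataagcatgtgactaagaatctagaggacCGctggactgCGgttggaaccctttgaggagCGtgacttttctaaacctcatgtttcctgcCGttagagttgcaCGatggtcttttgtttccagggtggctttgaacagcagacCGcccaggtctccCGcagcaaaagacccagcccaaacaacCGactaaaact
Zfp281: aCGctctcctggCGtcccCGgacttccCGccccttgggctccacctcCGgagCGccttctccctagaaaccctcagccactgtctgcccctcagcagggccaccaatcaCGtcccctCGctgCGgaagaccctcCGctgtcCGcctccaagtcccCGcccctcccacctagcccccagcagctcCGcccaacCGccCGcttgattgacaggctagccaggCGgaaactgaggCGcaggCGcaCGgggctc
Zfp809: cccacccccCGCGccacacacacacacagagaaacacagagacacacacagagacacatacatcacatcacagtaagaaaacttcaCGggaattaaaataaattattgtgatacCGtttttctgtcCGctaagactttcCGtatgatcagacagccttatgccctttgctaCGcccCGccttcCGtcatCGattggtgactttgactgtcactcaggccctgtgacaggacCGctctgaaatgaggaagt
These stretches hold 9, 19 and 11 CG dinucleotides. A RefSeq promoter was matched for 207 members, and all 207 held at least 1 CG, with a median of 12 against 6 over 27025 promoters of the same length. At least 1 CG was found in 91.7% of all those promoters. They were not limited to genes at the level rule, so the members were not set against genes of like level.

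The members carry many fingers and split about evenly by a KRAB run, a short sequence pattern of the KRAB domain. In the longest reading frame of the GENCODE M21 transcripts, found for 249 members, 245 had at least 1 finger, with a median of 10 and a highest value of 36 in Zfp142. A KRAB run was found in 118 and none in 131, with a median of 12 and 7 fingers, and a SCAN run, which pairs such proteins, in 4. Each run is a single strict pattern, so a member without it may still carry the domain. Zfp445, tied to Trim28 below, had no KRAB run. No finger was found in Zfp330, Zfp703, Zfp839 and Zfp993. The GO columns of the tables named DNA binding or transcription factor activity for 220 members, metal or zinc ion binding for 236 and RNA binding for 4. For 15 members over 20% of the 100-base stretches of the transcript also occurred in another gene, so their reads may be split. Among the genes named below this touches Zfp991 (73.8%), Zfp993 (71.9%), Zfp524 (43.6%, with Gm44973), Zfp984 (29.9%), Zfp992 (28.6%) and Zfp932 (26.9%). The members had a median exonic length of 4655.5 bases, from 1258 in Zfp580 to 15839 in Zfp451, against 3842.5 for the other genes that met the level rule.

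In resting cells most members were expressed at a few FPKM. The median over the 250 was 2.73 FPKM in wild-type RAW264.7 with PBS and 2.93 in wild-type BMDMs with PBS, and 20 and 18 members reached 10 FPKM. Members with a KRAB run had medians of 2.04 and 2.50 FPKM, and those without it 3.94 and 3.40. Zfp207 and Zfp106 led the wild-type PBS groups. Zfp207, which binds Bub3 at kinetochores, had 37.3, 37.0 and 37.4 FPKM in wild-type RAW264.7 with PBS and 22.29, 20.96 and 22.10 in BMDMs. Zfp106, which binds RNA, had 28.4, 29.7 and 29.3 FPKM in RAW264.7 and 24.02, 24.43 and 24.73 in BMDMs. Zfp706 stood between them in RAW264.7, at 34.3 to 34.7 FPKM, and after Zfp106 came Zfp710, Zfp422, Zfp598, Zfp91 and Zfp830. In BMDMs they were followed by Zfp706, Zfp263, Zfp91, Zfp710, Zfp445 and Zfp984. In RAW264.7 the levels of Zfp207, Zfp706 and Zfp106 did not overlap, while Zfp207 and Zfp706 overlapped in BMDMs. At the edge of the rule, Zfp456 (0.67 FPKM in RAW264.7 and 1.00 in BMDMs), Zfp334 (1.02 and 0.04) and Zfp229 (1.04 and 0.93) lay just inside. Zfp442 (0.00 and 0.99), Zfp11 (0.97 and 0.99) and Zfp109 (0.52 and 0.98) lay just outside.

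Set side by side, the wild-type PBS levels of the 250 members in both tables had a Spearman coefficient of 0.56 across genes. The tables were normalized separately and cell type and strain differ together, so no test was made. A level at least 2 times that of the other cell type was found for 42 members in BMDMs and 37 in RAW264.7. The median log2 ratio of BMDM to RAW264.7 was -0.04 for the members and -0.44 for all 12278 genes at the level rule. Chosen for the size of the gap, Zfp296 had 8.61 FPKM in RAW264.7 and 0.17 in BMDMs, and Zfp651 had 4.91 and 0.11. Zfp991, Zfp992 and Zfp993, neighbours on chromosome 4 whose reads may be split, had 9.63, 4.35 and 3.52 FPKM in BMDMs and 0.01, 0.00 and 0.00 in RAW264.7. Zfp395 and its paralog Zfp704 had 10.4 and 4.26 FPKM in BMDMs and were listed at 0 in wild-type RAW264.7 with PBS. Zfp704 had no value above 0 in any RAW264.7 library, so 249 members could be tested there.

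The group medians moved with treatment more in BMDMs than in RAW264.7. The member median in RAW264.7 was 2.73 FPKM in wild type with PBS, 3.66 in those labelled knockout with PBS, 2.35 in wild type with LPS and 3.04 in those labelled knockout with LPS. Within the PBS group labelled knockout, replicate 1 had 3.07 and the others 3.96 and 4.02. In BMDMs it was 2.93, 3.01, 1.08 and 1.35 FPKM in the same order. Of the 250 members, 228 and 227 reached 1 FPKM in wild-type and knockout BMDMs with PBS, and 133 and 141 with LPS. The 228 is set by the rule itself, and no count of other genes is given beside it. These counts are thus a description. The plot of 12 genes by library shows the patterns described below.

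**Figure D1:**
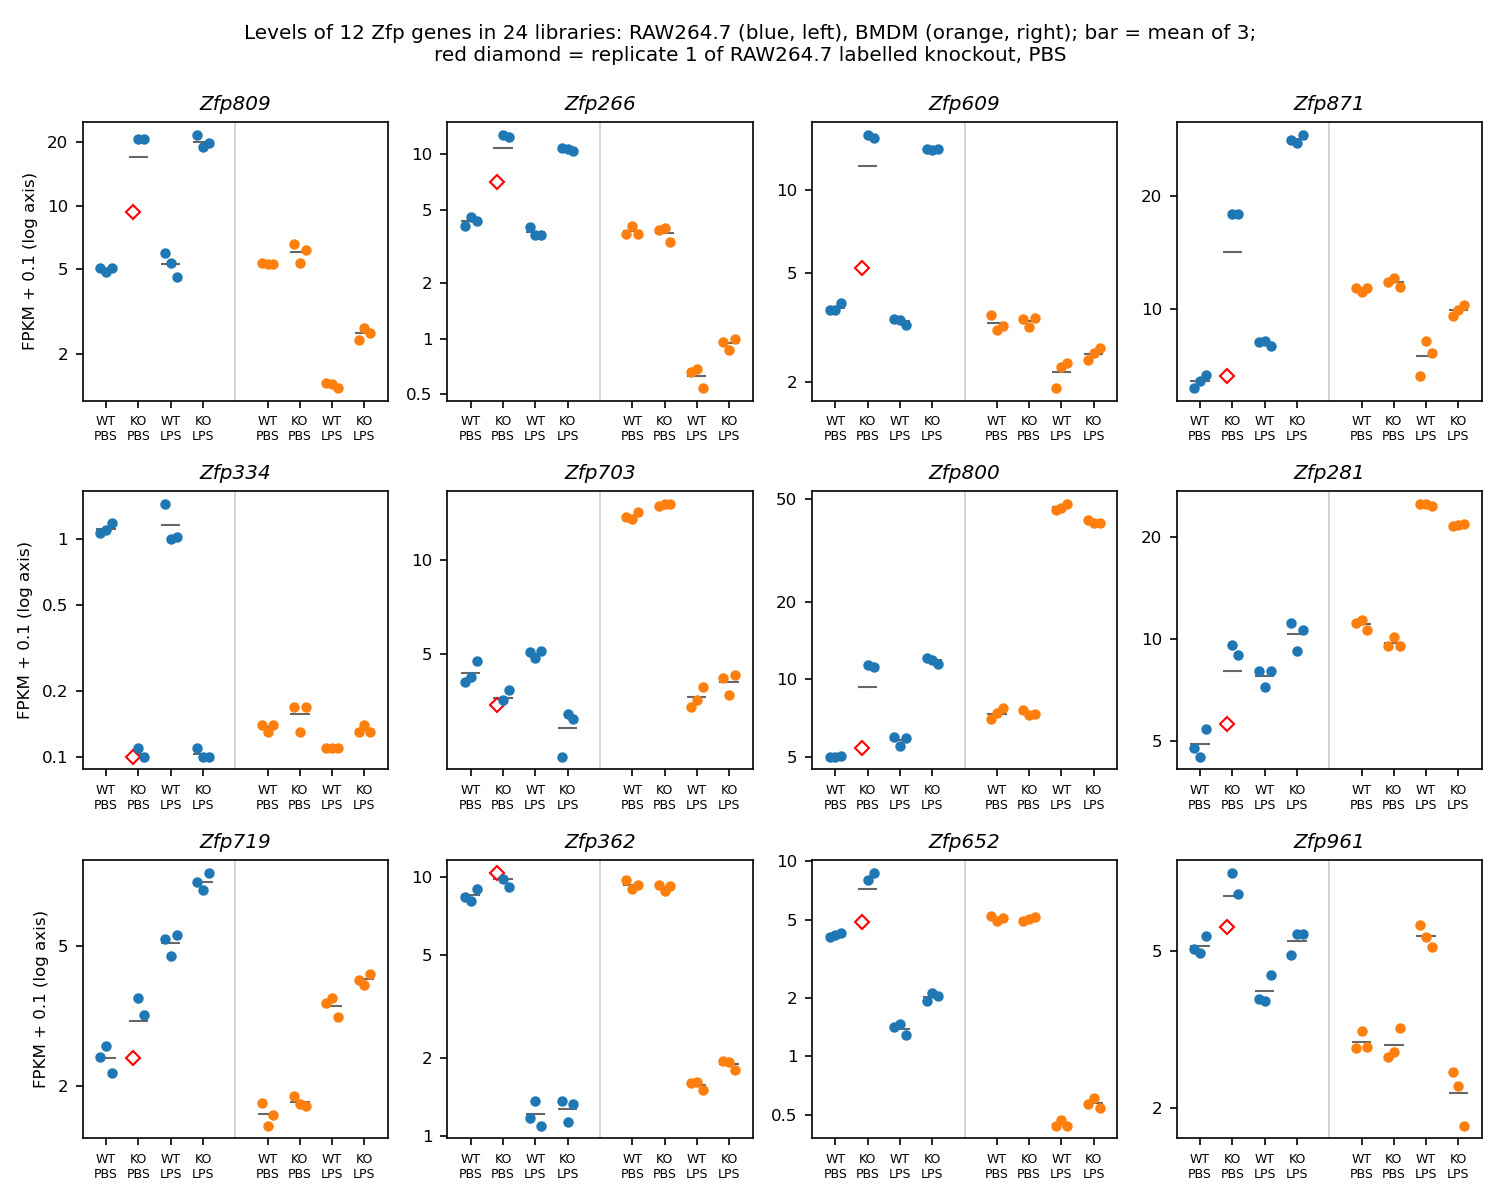
Level of 12 Zfp genes in each of 24 libraries, as FPKM + 0.1 on a log axis, by cell type, genotype label and treatment. Points are libraries, bars the mean of the 3, and the open red diamond is replicate 1 of RAW264.7 labelled knockout with PBS. Zfp800 stood at 40.4 to 47.8 FPKM in BMDMs with LPS against 6.89 to 7.61 with PBS, and Zfp334 was at most 0.01 FPKM in RAW264.7 labelled knockout.

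With LPS, more Zfp genes were higher than lower in RAW264.7 labelled knockout. This comparison uses no library of the rule. Of 249 members tested, 72 (28.9%) were higher and 6 (2.41%) lower, by limma on log2(FPKM + 0.1) with a Benjamini-Hochberg adjusted p under 0.05 over all genes and a difference of at least 1.5-fold. Over all 26740 genes tested, 9.73% were higher and 7.6% lower. Among 11927 other genes at the level rule, 13.1% were higher and 14.1% lower, with a median log2 difference of -0.04 against 0.34 for the members. The difference was above 0 in 195 members and below 0 in 54. Replicate 1 labelled knockout with PBS enters the pooled spread. Without it, 40 of 118 members with a KRAB run and 36 of 129 without one were higher, against 11% of all genes. A pseudocount of 1 gave 40 higher and 2 lower, and TPM, which changes the library scale, 110 and 4. No share over all genes is given for these settings, so their counts are not set against other genes. With median-ratio scaling 70 were higher and 7 lower, against 9.87% and 8.18% of all genes, and 69 of the 72 were also called by both that scaling and edgeR.

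The largest differences were over 3-fold. Zfp809, a KRAB protein that silences murine leukemia viruses through their primer binding site, had 5.89, 5.28 and 4.50 FPKM in wild type with LPS and 21.48, 18.79 and 19.69 in those labelled knockout. The groups did not overlap, and the log2 difference was 1.92 (SE 0.27, adjusted p = 0.00114). Zfp609, the paralog of Zfp608, had 3.29, 3.26 and 3.14 FPKM against 14.05, 13.90 and 14.01, a log2 difference of 2.08 (SE 0.35, adjusted p = 0.00322). All labelled-knockout libraries were above 13 FPKM and all wild-type ones below 4. Zfp871, with a KRAB run and 15 fingers, had 8.04, 8.11 and 7.85 FPKM against 28.23, 27.70 and 29.06, a log2 difference of 1.81 (SE 0.32, adjusted p = 0.00395). Zfp26, with a KRAB run and 22 fingers, had 2.68, 2.90 and 3.10 FPKM against 8.89, 9.32 and 9.27, a log2 difference of 1.63 (SE 0.23, adjusted p = 0.00133). In each of these genes the 3 libraries of a label lay close together and far from the other label. The SEs are pooled over all 12 RAW264.7 libraries, so replicate 1 labelled knockout with PBS enters them. Without it the SEs for Zfp809, Zfp609, Zfp871 and Zfp26 were 0.10, 0.05, 0.05 and 0.06. The adjusted p became 2.23e-06, 8.53e-08, 1.83e-07 and 7.59e-07, with the same log2 differences. Zfp329 was also higher (log2 difference 2.00, adjusted p = 0.00924). Zfp971 was higher by 2.27 (adjusted p = 0.0246), but 14.2% of its transcript stretches also occur in another gene and its call was lost without each of 5 of the 6 libraries compared. Without replicate 1 labelled knockout with PBS its adjusted p was 8.91e-05.

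The 6 lower members were Zfp334, Zfp608, Zfp449, Zfp703, Zfp946 and Zfp524. Zfp449 was outside the naming rule and is listed after its value was seen. Zfp334, a KRAB gene on chromosome 2, had 1.35, 0.90 and 0.92 FPKM in wild type with LPS and 0.01, 0.00 and 0.00 in those labelled knockout. With PBS the libraries labelled knockout had 0.00, 0.01 and 0.00 FPKM, so here replicate 1 was at the level of the others. The wild-type PBS level is what made Zfp334 a member and is not compared. The fitted log2 difference with LPS was -3.46 (SE 0.14, adjusted p = 4.65e-07), a value set by the added 0.1 FPKM. Zfp608 showed the same picture at a lower level, with 0.28, 0.21 and 0.19 FPKM against 0.01, 0.00 and 0.01. Zfp703, a transcriptional cofactor studied in breast cancer, had 4.97, 4.75 and 4.99 FPKM against 2.23, 3.11 and 2.98, a log2 difference of -0.81 (SE 0.12, adjusted p = 0.00185). Zfp946 (log2 difference -0.74, adjusted p = 0.0133) lost its call without replicate 2 of wild type with LPS, and Zfp524 (-0.71, adjusted p = 0.0466) without any of 8 libraries.

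**Figure D2:**
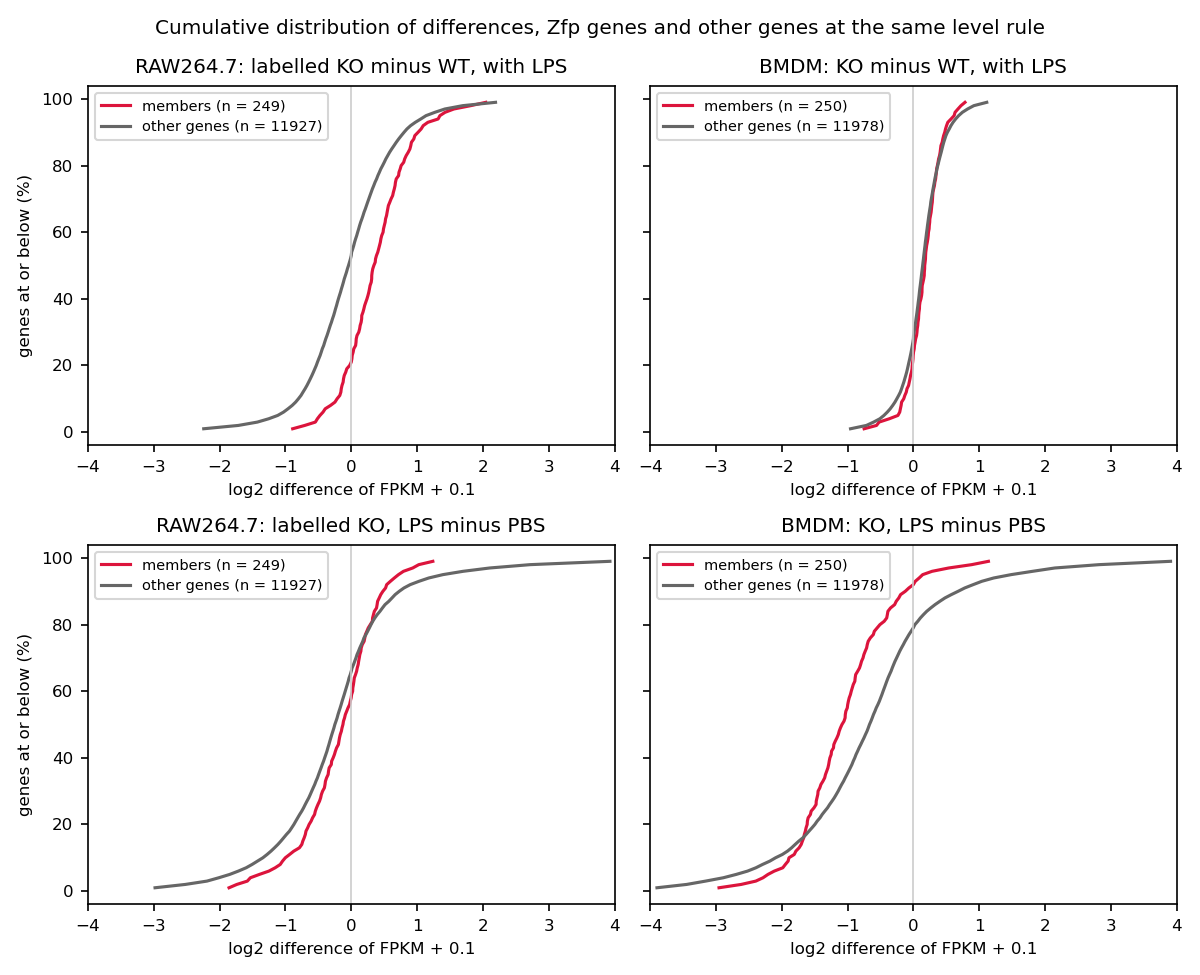
Cumulative share of genes (y axis, percent) by log2 difference (x axis) for Zfp members and for the other genes at the level rule, in the 4 comparisons that use no library of the rule; curves run from the 1st to the 99th percentile. In RAW264.7 labelled knockout against wild type with LPS the member median was 0.34 and that of other genes -0.04, and in BMDM knockout LPS against PBS it was -1.09 and -0.67.

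With PBS the same labels gave fewer calls until replicate 1 was left out. This comparison shares the wild-type PBS libraries with the rule, so it was tested for the 227 members that passed through BMDMs. Of these, 36 were higher and 5 lower, with a median log2 difference of 0.34. Over all genes 4.79% were higher and 3.77% lower, and among other genes at the level rule 6.63% and 6.02%. Without replicate 1 there were 85 higher and 5 lower of 226, with a median of 0.44, and 12.7% and 8.11% over all genes. With median-ratio scaling 24 were higher and 5 lower, against 3.74% and 4.14% of all genes. Leaving out any other PBS library gave 15 to 19 higher.

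Replicate 1 lay nearer to wild type than to its own group for most of these genes. Over the 72 members that were higher with LPS, its median deviation from the wild-type PBS mean was 0.16 on the log2 scale, and that of replicates 2 and 3 was 0.92 and 0.93. It was above all 3 wild-type libraries for 47 of the 72, and replicates 2 and 3 for 71 and 70. Zfp809 had 4.98, 4.77 and 4.96 FPKM in wild type with PBS and 9.23, 20.57 and 20.61 in those labelled knockout, with replicate 1 in between. The log2 difference was 1.67 (SE 0.27, adjusted p = 0.00401), and 2.05 without replicate 1 (adjusted p = 3.23e-06). Zfp871 had 6.04, 6.32 and 6.54 FPKM against 6.51, 17.82 and 17.79, so replicate 1 lay within the wild-type range. It did not pass the test (adjusted p = 0.069) and passed without replicate 1 (log2 difference 1.49, adjusted p = 6.50e-07). Zfp609 had 3.55, 3.55 and 3.80 FPKM against 5.09, 15.76 and 15.40 and was higher with and without it (1.54 and 2.07), though its call was lost without any of the other 5 PBS libraries. Zfp438 was higher at a low level (log2 difference 2.41, adjusted p = 0.000681), and Zfp946 was lower (-0.84, adjusted p = 0.0140, lost without replicate 2 of wild type). Without replicate 1 labelled knockout their differences were 2.69 and -0.755, both called.

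**Figure D3:**
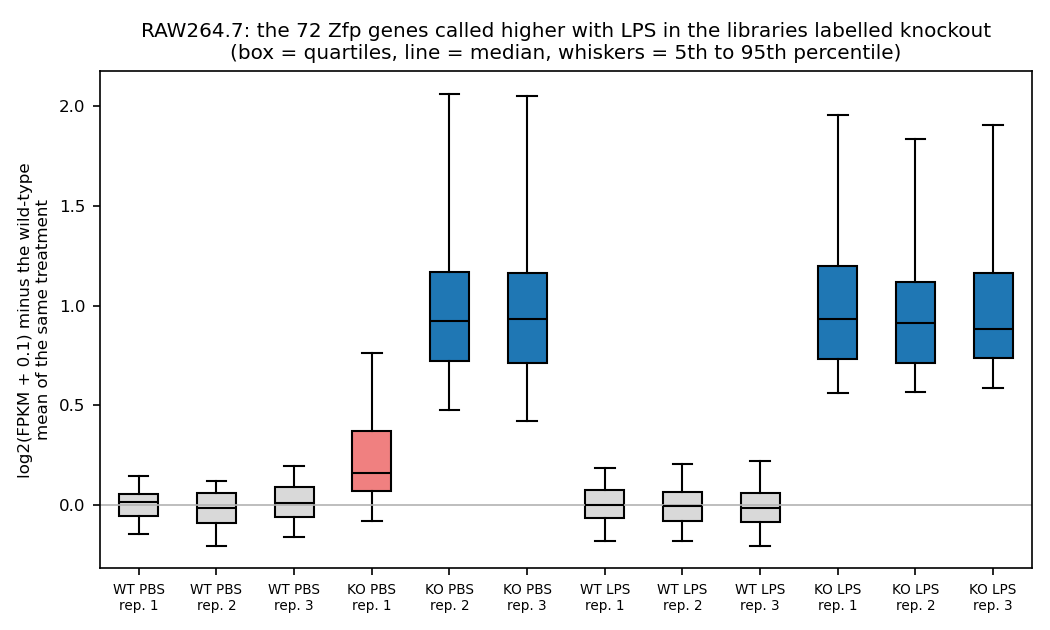
Deviation of each RAW264.7 library from the wild-type mean of its treatment (y axis, log2) over the 72 members that were higher with LPS; boxes show the median and quartiles over members. Replicate 1 labelled knockout with PBS had a median of 0.16, and replicates 2 and 3 had 0.92 and 0.93.

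The RAW264.7 genotype difference followed exonic length, in the Zfp genes and in other genes. With LPS, the Spearman coefficient across genes between length and log2 difference was 0.39 over 249 members and 0.43 over 11927 other genes at the level rule, and with PBS it was 0.37 and 0.43. Genes of one table share libraries and are not independent replicates, so no p is given. By quartile of length over all genes at the level rule, the member medians with LPS were -0.19, 0.15, 0.41 and 0.63 from short to long, over 12, 78, 86 and 73 members. The share higher was 8.33, 11.5, 27.9 and 52.1%. The other genes had medians of -0.40, -0.22, 0.04 and 0.38 in the same quartiles, and 5.16, 4.63, 9.9 and 32.8% higher. The member median was above that of the other genes in each quartile, with no test made, and length moved with the difference in both. The part of length in the result was not tested further. In the other comparisons that use no library of the rule the coefficients were smaller for the members, at 0.18 for LPS against PBS in RAW264.7 labelled knockout, 0.12 for BMDM knockout against wild type with LPS and 0.02 for BMDM knockout LPS against PBS.

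**Figure D4:**
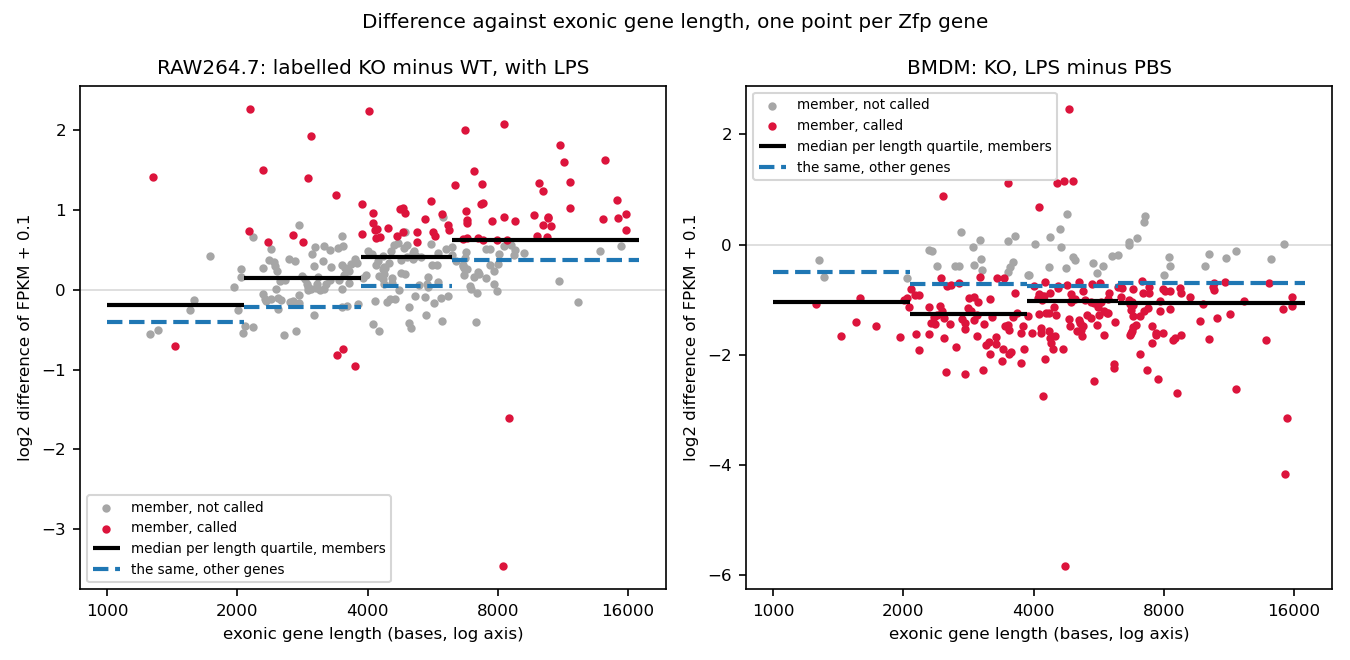
Log2 difference (y axis) against exonic length in bases (x axis, log scale) for Zfp members as points, with medians by length quartile for members and other genes. In RAW264.7 labelled knockout against wild type with LPS the member medians ran from -0.19 to 0.63 across quartiles, and in BMDM knockout LPS against PBS they lay between -1.26 and -1.03.

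Most Zfp genes fell after LPS in BMDMs on the FPKM scale. In knockout BMDMs, a comparison without rule libraries, 194 of 250 members fell and 7 rose, with a median log2 difference of -1.09. Of the 250, 32 passed the rule through resting BMDMs alone and stay in these counts. Over all 26973 genes tested, 30.9% fell and 8.02% rose, and among 11978 other genes at the level rule 51.6% and 10.1%, with a median of -0.67. These counts depended on the scaling. With median-ratio scaling, which moved the median of other genes from -0.67 to -0.02, 108 members fell and 22 rose, with a median of -0.45, and 15.8% and 13.9% of all genes did so. All 108 were among the 194, and all 7 rises were kept. In wild-type BMDMs, tested for the 218 members that passed through RAW264.7, 180 fell and 9 rose, with 32.5% and 7.94% over all genes and 55.4% and 8.94% among other genes at the level rule, and by median-ratio scaling 88 and 24, against 16.3% and 15% of all genes. There Zfp652, Zfp760, Zfp369 and Zfp398 fell by 3.51, 3.10, 2.83 and 2.75, and Zfp800, Zfp658, Zfp949 and Zfp281 rose by 2.66, 1.26, 1.20 and 1.17.

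The strongest falls ended near the detection limit. Zfp395 had 10.97, 11.09 and 10.66 FPKM in knockout BMDMs with PBS and 0.12, 0.07 and 0.09 with LPS. The log2 difference was -5.84 (SE 0.09). In wild type with LPS it had 0.05, 0.03 and 0.04 FPKM, and its wild-type PBS level, which made it a member, is not compared. Its paralog Zfp704 had 5.10, 4.90 and 4.84 FPKM against 0.15, 0.21 and 0.19, a log2 difference of -4.16. Every LPS library of the knockout was at or below 0.21 FPKM for both genes of the pair. Both passed the rule through resting BMDMs alone, so their falls from that level are a description with no test. Zfp652, a transcriptional repressor with 7 fingers, had 4.83, 4.95 and 5.10 FPKM against 0.47, 0.51 and 0.44, a log2 difference of -3.14 (SE 0.06, adjusted p = 7.62e-11). Zfp760, Zfp41 and Zfp398 fell by 2.76, 2.69 and 2.62 on the log2 scale. The falls of Zfp652, Zfp760, Zfp41 and Zfp398 were called with every alternative tried.

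The 7 rises in knockout BMDMs were Zfp800, Zfp281, Zfp719, Zfp263, Zfp658, Zfp513 and Zfp949. Zfp800 had 7.51, 7.20 and 7.26 FPKM with PBS and 41.52, 40.47 and 40.43 with LPS, a log2 difference of 2.46 (SE 0.05, adjusted p = 1.30e-10). In wild type it had 6.89, 7.30 and 7.61 against 45.40, 46.15 and 47.83, and it was the highest member in both LPS groups. Zfp281, a transcription factor of stem cells, had 9.43, 10.02 and 9.46 FPKM against 21.52, 21.65 and 21.77, a log2 difference of 1.16 (SE 0.05, adjusted p = 1.11e-08). Zfp263, with a SCAN run and 9 fingers, had 15.47, 15.56 and 15.01 FPKM against 32.20, 33.53 and 34.77, a log2 difference of 1.12 (adjusted p = 7.00e-08). In all 3 genes each LPS library was above each PBS library by a wide margin. Zfp719 and Zfp658, both with a KRAB run, rose by 1.16 and 1.11, and Zfp513, a gene tied to retinal disease in people, by 0.88. Zfp949 rose by 0.68 and lost its call with a pseudocount of 1. Zfp207, Zfp143 and Zfp710 passed for a rise in knockout BMDMs by median-ratio scaling (log2 differences 0.73, 0.73 and 0.80) and not on the FPKM scale (0.04, 0.06 and 0.11).

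In RAW264.7 labelled knockout, LPS moved fewer members than in BMDMs, and the balance of directions turned with the scaling. Of 249 members, 13 rose and 52 fell, with a median of -0.13, against 7.45% and 14.6% of all genes. Among other genes at the level rule 9.93% rose and 27.5% fell, with a median of -0.25. With median-ratio scaling, which moved the median of other genes to about 0, 41 rose and 30 fell, with a median of 0.10, against 10.6% and 9.96% of all genes and 15.6% and 18.7% of other genes at the level rule. All 13 rises and 30 of the 52 falls were called by both. Without replicate 1 of the PBS group, 10 rose and 61 fell, against 6.8% and 15% of all genes, and without replicate 3 of the LPS group 8 rose. In wild type, tested for 227 members, 6 rose and 44 fell, against 5.8% and 12.5% of all genes and 8.63% and 23.7% of other genes at the level rule, and 14 and 23 by median-ratio scaling, against 7.95% and 8.04% of all genes.

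Zfp362, a paralog of the transcription factor Zfp384, had the strongest fall under the knockout label in RAW264.7, and in wild type among the 227 members tested there. It had 10.30, 9.73 and 9.07 FPKM with PBS under the knockout label and 1.27, 1.04 and 1.23 with LPS, a log2 difference of -2.94 (SE 0.11, adjusted p = 3.77e-08). In wild type it had 8.29, 8.02 and 8.90 against 1.08, 1.27 and 1.00 (-2.81, adjusted p = 7.34e-08). In knockout BMDMs it had 9.25, 8.74 and 9.18 FPKM against 1.86, 1.84 and 1.70 (-2.27, adjusted p = 4.34e-10), so it fell in both cell types at like starting levels. Zfp651 fell by 2.84, Zfp219 by 1.91, Zfp652 by 1.80 and Zfp41 by 1.79 under the knockout label. Without replicate 1 of the PBS group their log2 differences were -2.91, -1.89, -2.06 and -1.98, and that of Zfp362 was -2.90. All were called, but Zfp651 passed the rule through resting RAW264.7 alone, so its fall is a description. Zfp931 fell by 1.74 (adjusted p = 0.0174) and lost its call without replicate 1 of the LPS group or replicate 3 of the PBS group.

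Among the rises, Zfp513 and Zfp719 were the pair that also rose in knockout BMDMs. Zfp513 had 8.90, 9.53 and 9.40 FPKM with PBS under the knockout label and 19.26, 18.30 and 19.22 with LPS, a log2 difference of 1.02 (SE 0.08, adjusted p = 6.93e-06). Zfp719 had 2.30, 3.47 and 3.09 FPKM against 7.11 to 8.0, a log2 difference of 1.34 (SE 0.14, adjusted p = 6.17e-05). Without replicate 1 of the PBS group the differences of Zfp513 and Zfp719 were 0.99 and 1.18. Both rose in wild type as well (0.95 and 1.09), as did Zfp948 (0.87) and Zfp281 (0.67, lost without any of 4 libraries). Zfp827, which brings the NuRD complex to telomeres, rose by 1.55 (adjusted p = 3.33e-05, 1.36 without replicate 1). Zfp871 and Zfp568 rose by 1.15 and 0.99, and by 0.67 and 0.59 without replicate 1. Both lost the call without any 1 of the 3 LPS libraries. Zfp945 rose by 1.23 at a low level (adjusted p = 0.0180, lost without replicate 3 of the LPS group).

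Of the 52 members that fell under the knockout label in RAW264.7, 44 also fell in knockout BMDMs, which is 84.6% of the former and 22.7% of the 194. With median-ratio scaling 23 were shared, 76.7% of 30 and 21.3% of 108. In BMDMs 77.6% of all members fell on the FPKM scale and 43.2% with median-ratio scaling. The rises shared were Zfp513 and Zfp719, and by median-ratio scaling also Zfp207, Zfp263, Zfp281 and Zfp407, the last listed after its value was seen.

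**Figure D5:**
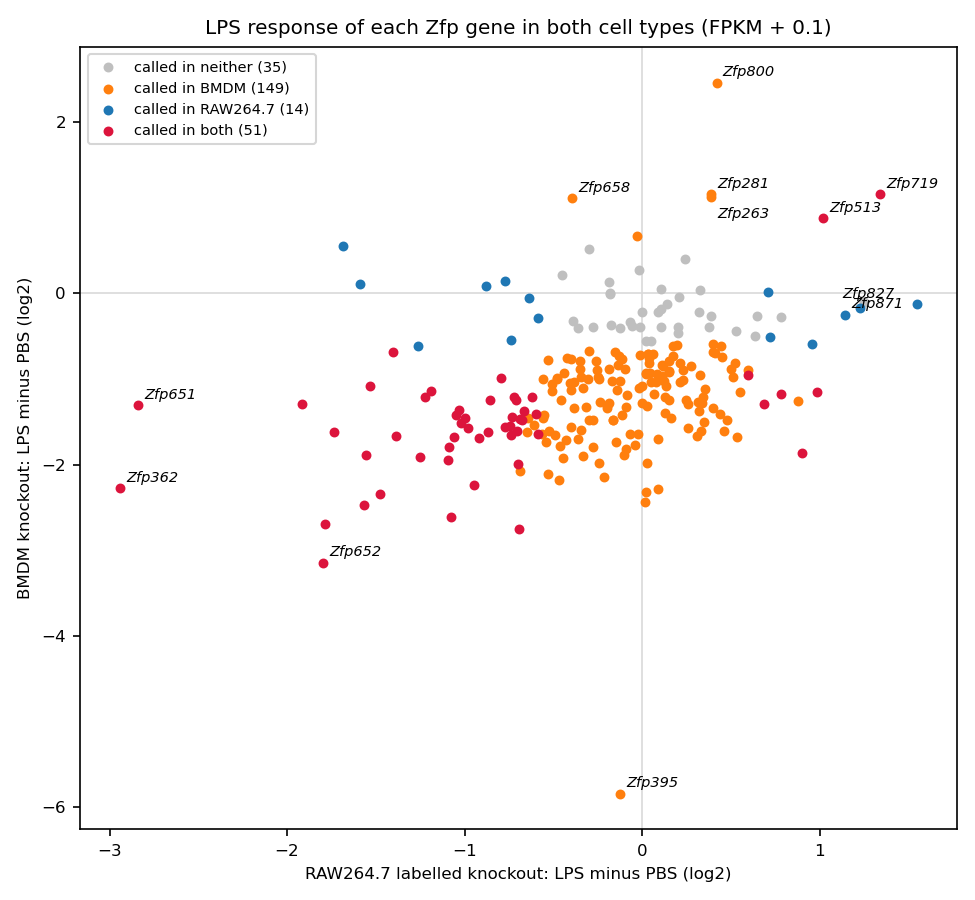
Log2 difference of LPS against PBS in RAW264.7 labelled knockout (x axis) and knockout BMDMs (y axis) for 249 Zfp members, coloured by the cell type in which the member was called. There were 51 called in both, 149 in BMDMs alone, 14 in RAW264.7 alone and 35 in neither. The 51 were counted whatever the direction. Of them 44 fell in both cell types and 2 rose in both, and the rest went in opposite directions.

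Without LPS no Zfp gene was called between knockout and wild-type BMDMs. The test covered the 218 members that passed through RAW264.7, against 0.901% higher and 0.916% lower over all genes and 1.51% and 0.827% among other genes at the level rule. At an unadjusted p under 0.05 limma had 20 higher and 7 lower. edgeR called 1 higher and DESeq2 called 0.

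With LPS a small number differed. Of 250 members, 15 were higher and 4 lower in the knockout, with a median log2 difference of 0.17, against 3.23% and 1.53% of all genes. A pseudocount of 1 left 1 higher and 2 lower, with no share over all genes given for it. Among other genes at the level rule 5.54% were higher and 1.93% lower, with a median of 0.14. With median-ratio scaling 8 were higher and 9 lower, with a median of 0.03, against 2% and 2.6% of all genes. The 8 were all among the 15, and so were the 4 among the 9. Zfp422, with 5 fingers and known from tooth development, had 5.01, 4.97 and 5.08 FPKM in wild type with LPS and 9.09, 9.83 and 9.65 in the knockout. The log2 difference was 0.91 (SE 0.06, adjusted p = 2.53e-05). With PBS it had 7.33, 7.29 and 7.52 against 8.89, 7.79 and 9.08, so the groups did not overlap there either, with no call. Zfp809 had 1.35, 1.34 and 1.28 FPKM against 2.21, 2.56 and 2.41, a log2 difference of 0.81 (SE 0.08, adjusted p = 0.000151). All knockout libraries were above all wild-type ones, and both were below the 5.19 to 6.51 FPKM of the PBS libraries.

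The 4 lower members were Zfp961, Zfp949, Zfp456 and Zfp777. Zfp961, with a KRAB run and 11 fingers, had 5.70, 5.30 and 5.01 FPKM in wild type with LPS and 2.37, 2.18 and 1.71 in the knockout, a log2 difference of -1.32 (SE 0.12, adjusted p = 9.05e-05). With PBS it had 2.74, 3.03 and 2.75 against 2.59, 2.67 and 3.09, where the groups overlapped. Zfp949, also with a KRAB run, had 6.75, 6.36 and 6.44 FPKM against 3.84, 3.52 and 3.13, a log2 difference of -0.88 (SE 0.10, adjusted p = 0.000269). Zfp456 (-0.87) and Zfp777 (-0.63) had adjusted p of 0.00379 and 0.000561, and the call of Zfp777 was lost without replicate 2 of the knockout with LPS.

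Members higher under the knockout label with LPS in both cell types were Zfp101, Zfp157, Zfp266, Zfp275 and Zfp809, which is 6.9% of the 72 in RAW264.7 and 33.3% of the 15 in BMDMs. The share of the 15 is near the 28.9% of all members that were higher in RAW264.7. With median-ratio scaling Zfp101 and Zfp809 remained. The RAW264.7 log2 differences were 0.86, 0.86, 1.49, 0.99 and 1.92, and those in BMDMs 0.69, 0.61, 0.60, 0.63 and 0.81. Zfp266, a KRAB gene on chromosome 9 like Zfp809, had 3.95, 3.55 and 3.57 FPKM against 10.71, 10.55 and 10.35 in RAW264.7, and 0.56, 0.58 and 0.44 against 0.86, 0.77 and 0.90 in BMDMs. In BMDMs its level was under 1 FPKM in every LPS library, and its call there was lost without any of 3 libraries. Zfp101 and Zfp157 lost their BMDM call without any of 3 libraries, and Zfp275 without replicate 1 of the knockout with LPS.

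The response to LPS itself differed by genotype for few members. By the interaction term, tested for 227 members, 2 were higher and 1 lower in RAW264.7, against 0.905% and 1.04% of all genes and 0.997% and 1.61% of other genes at the level rule. With median-ratio scaling it was 1 in each direction, against 0.957% and 0.999% of all genes. In BMDMs, tested for 218, 7 were higher and 3 lower, against 1.91% and 1.02% of all genes and 2.73% and 1.24% of the others at the level rule, and 3 and 5 with median-ratio scaling, against 1.24% and 1.41% of all genes. Zfp961 had an interaction of -1.29 (SE 0.17, adjusted p = 0.00193), the largest in size among the 10 called there. It rose after LPS in wild type by 0.89 (adjusted p = 8.91e-05) and in the knockout had a log2 difference of -0.41, under the fold limit. Zfp422 had an interaction of 0.70 (SE 0.09, adjusted p = 0.00181), and both genes kept the call with every alternative. In RAW264.7, Zfp710 had 26.40, 27.96 and 29.32 FPKM with PBS in wild type and 40.47, 46.88 and 49.38 under the knockout label, and 14.65, 15.20 and 14.83 against 15.27, 15.01 and 14.85 with LPS. The PBS groups were apart and the LPS groups overlapped (interaction -0.69, SE 0.12, adjusted p = 0.0202). Its call was lost without any of 7 libraries and with TPM.

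Of 6 genes listed as acting on retroelements or imprinted regions, 4 were members (Zfp809, Zfp932, Zfp568 and Zfp445), and 3 of the 4 were higher in RAW264.7 labelled knockout with LPS. Of all members 28.9% were higher there, and of other genes at the level rule 13.1%. Zfp809 and Zfp445 lie on chromosome 9, described below. Zfp445, which with Trim28 guards imprints, had 14.31, 14.59 and 14.45 FPKM in wild type with LPS and 30.36, 31.15 and 31.08 under the knockout label, a log2 difference of 1.09 (adjusted p = 0.00635). Zfp568, a repressor of a placental Igf2 transcript, had 2.55, 2.53 and 2.19 FPKM against 6.12, 6.31 and 6.21, a log2 difference of 1.33 (adjusted p = 0.00764). The fourth, Zfp932, had a log2 difference of 0.12 (adjusted p = 0.626). In knockout BMDMs all 4 fell after LPS, by 1.28 for Zfp809, 1.80 for Zfp932, 1.15 for Zfp568 and 0.89 for Zfp445. On this FPKM scale 77.6% of all members fell. By median-ratio scaling Zfp809 and Zfp932 were called.

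Of 5 members that act on RNA, ribosomes or the spindle (Zfp598, Zfp622, Zfp106, Zfp638 and Zfp207), Zfp106 and Zfp638 were higher in RAW264.7 labelled knockout with LPS. Of all members 28.9% were higher there. Zfp106 had 28.49, 26.57 and 27.78 FPKM against 50.56, 52.44 and 51.39, a log2 difference of 0.90 (adjusted p = 0.0172) that was lost without replicate 2 of either group. Without replicate 1 labelled knockout with PBS its adjusted p was 2.91e-06. In knockout BMDMs with LPS, 3 of the 5 fell on the FPKM scale and none by median-ratio scaling, where Zfp207 rose. On the FPKM scale 77.6% of all members, 51.6% of other genes at the level rule and 30.9% of all genes fell. By median-ratio scaling 15.8% of all genes fell and 13.9% rose. Zfp622, a factor of the large ribosomal subunit, turned from -0.67 to 0.01 between the scalings. Zfp598, the ubiquitin ligase of collided ribosomes, had -0.55 and 0.12 with no call.

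The protein-modifying members were Zfp91, an E3 ubiquitin ligase of noncanonical NF-kB signalling, and Zfp451, a SUMO ligase. Zfp451 was higher in RAW264.7 labelled knockout with LPS (log2 difference 0.95, adjusted p = 0.00602), and Zfp91 had 0.46, under the fold limit. Both fell after LPS in knockout BMDMs on the FPKM scale (-1.11 and -0.94) and neither passed by median-ratio scaling (-0.45 and -0.26). Zfp592 and Zfp687, which bind Zmynd8 in a chromatin complex, were both higher in RAW264.7 labelled knockout with LPS (0.63 and 0.95), the call of Zfp592 being lost without replicate 2 of the labelled knockout. Both fell in knockout BMDMs after LPS on the FPKM scale (-0.77 and -0.99), with no call by median-ratio scaling (-0.09 and -0.32). Of 6 factors of broad use (Zfp143, Zfp148, Zfp281, Zfp384, Zfp410 and Zfp263), Zfp281 and Zfp263 rose and Zfp148, Zfp384 and Zfp410 fell after LPS in knockout BMDMs, the falls on the FPKM scale alone (-0.78, -0.79 and -0.69, against -0.10, -0.10 and -0.03). Zfp410 is known to act on Chd4. Of all members 28.9% were higher in RAW264.7 labelled knockout with LPS, and 77.6% fell after LPS in knockout BMDMs on the FPKM scale.

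Counts were also taken by KRAB run. In RAW264.7 labelled knockout with LPS, 36 of 118 with a KRAB run were higher and 2 lower (median 0.37), and 36 of 130 without it were higher and 4 lower (median 0.31). Of all members 28.9% were higher and 2.41% lower, and of other genes at the level rule 13.1% and 14.1%. By finger number, 49 of 133 with 10 or more were higher and 23 of 115 with fewer. After LPS in knockout BMDMs, 96 of 118 with a KRAB run fell and 3 rose (median -1.21), and 97 of 131 without it fell and 4 rose (median -0.99). Of all members 77.6% fell and 2.8% rose there. With median-ratio scaling 58 fell and 8 rose with a KRAB run, and 49 fell and 14 rose without it, against 15.8% and 13.9% of all genes. In BMDM knockout against wild type with LPS, 11 of 118 with a KRAB run were higher and 3 lower. Of 131 without it, 4 were higher and 1 lower. With median-ratio scaling these became 6 and 5, and 2 and 4. Of all members 6.0% were higher and 1.6% lower on the FPKM scale. Of all genes it was 3.23% and 1.53%, and 2% and 2.6% with median-ratio scaling. No test between these groups was made.

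The co-repressor genes that KRAB proteins work with are no members, and were followed as a fixed list of 13. In RAW264.7 labelled knockout with LPS 5 were higher and none lower, namely Setdb1 (log2 difference 0.72, adjusted p = 0.00599), Atf7ip (1.10), Cbx5 (1.19), Chd3 (1.63) and Dnmt1 (0.80). Trim28 had 61.9 ± 0.47 FPKM there against 68.3 ± 1.4 in wild type (SD, n = 3) and did not pass. After LPS in knockout BMDMs 10 of 13 fell, with Trim28 from 32.4 ± 1.1 to 10.6 ± 0.39 FPKM (SD, n = 3; log2 difference -1.61, adjusted p = 4.47e-09). The maintenance methylation gene Dnmt1 fell by 3.52, and Hdac1 rose by 0.65. With median-ratio scaling 8 fell and 1 rose. Among 46 Zbtb, Zkscan and Zscan genes at the level rule, other C2H2 families, 17 were higher and 1 lower in RAW264.7 labelled knockout with LPS (median 0.43), and 34 fell and 3 rose after LPS in knockout BMDMs, or 18 and 6 with median-ratio scaling. Of all genes 30.9% fell and 8.02% rose there, or 15.8% and 13.9% with that scaling. In RAW264.7 labelled knockout with LPS 9.73% of all genes and 13.1% of other genes at the level rule were higher.

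Chromosome 7 held 60 of the 250 members, and 13 clusters with gaps of at most 500 kb held 5 or more members each and 110 in all. Over 126 pairs of neighbouring members the Spearman coefficient of their log2 differences was 0.12 for RAW264.7 labelled knockout against wild type with LPS, 0.16 for LPS in RAW264.7 labelled knockout, 0.21 for BMDM knockout against wild type with LPS and 0.06 for LPS in knockout BMDMs. Of the clusters, 2 are described, picked after their values were seen. In the cluster of 20 members on chromosome 17 from Zfp160 to Zfp13, 17 fell after LPS in knockout BMDMs, and 5 were higher and 1 lower in RAW264.7 labelled knockout with LPS. In the chromosome 7 cluster of 10 from Zfp553 to Zfp646, all 10 fell after LPS in knockout BMDMs. On the same FPKM scale 77.6% of all members and 51.6% of other genes at the level rule fell there. In RAW264.7 labelled knockout with LPS 28.9% of all members were higher and 2.41% lower. Cluster counts by median-ratio scaling are not given.

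Chromosome 9, looked at after its values were seen, held 13 members, of which 9 (69.2%) were higher in RAW264.7 labelled knockout with LPS, with a median log2 difference of 0.97. Of 655 other chromosome 9 genes at the level rule, 175 (26.7%) were higher, with a median of 0.20. Zfp809, Zfp266, Zfp26 and Zfp445 lie there. In BMDMs 2 of the 13 were higher and 1 lower in the knockout with LPS. Of 653 other chromosome 9 genes at the level rule, 36 (5.5%) were higher and 12 lower there. Of all genes 3.23% were higher and 1.53% lower.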

How the data were processed

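RNA-seq of 24 mouse macrophage libraries was analysed, 3 in each of 8 groups. For each cell type the authors deposited a table of 56691 genes holding raw counts, FPKM, gene length and GO terms. The counts were used as deposited, and the FPKM were made by the authors by dividing by exon length and by the library total, so genes that take many counts lower the values of all others. As for the build, the submitters' processing notes name mm10, but the coordinates of the tables did not match GRCm38 and were not printed. The aligner, with its counter, is not given in the sources used here. Promoters come from RefSeq on GRCm38.p6, and fingers and KRAB runs were counted in the longest reading frame of GENCODE M21 transcripts, in place of the planned RefSeq proteins.

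Titles gave the groups. For 12 of 24 samples the tag for genotype says otherwise. In R 4.3.3 with the data.table package (1.17.8), the 4 groups of a cell type were fitted by limma 3.58.1 on log2(FPKM + 0.1), with calls at an adjusted p under 0.05 and at least 1.5-fold. The study's methods name limma and these limits, without the scale of the input. Benjamini-Hochberg adjustment ran over all genes. Fold changes are on this scale and understate those of low genes. Comparisons with the wild-type PBS libraries of the rule were tested only for members that passed through the other cell type. Members and lists were chosen with earlier results of these data known.

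Genes were named by a rule: the 8 highest in each cell type, the 6 (in comparisons with rule libraries, 4) largest rises and falls per comparison among called members with groups apart and a mean of at least 1 FPKM, those called in both cell types, the role lists, the edge of the rule and the 4 strongest interactions per cell type. Others, among them extremes of a sequence feature, were chosen after their values were seen. Alternatives were a pseudocount of 1, a filter of FPKM 1 in 3 libraries, TPM, median-ratio scaling, edgeR 4.0.16 and DESeq2 1.42.0 on the counts, the replicate number as a block, and each library left out. The fits were also run on simulated counts with the same spread for all genes and no outlying library, length trend or shift of scale. That run does not bear on replicate 1, length or scaling. Tables and plots were made with Python 3.11.15, pandas 2.3.3, numpy 2.4.6, scipy 1.17.1 and matplotlib 3.10.9.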

Additional observations from a re-analysis of the deposited data

Results flagged for a closer look

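These 10 members, of those named by the rule, are given because their response to LPS differed between genotypes by the interaction term of limma, (knockout LPS minus PBS) minus (wild type LPS minus PBS), in the same fit. In BMDMs the interaction was -1.29 for Zfp961 (adjusted p = 0.00193), -0.64 for Zfp212 (0.00842), 0.70 for Zfp422 (0.00181), 0.70 for Zfp275 (0.00290), 0.63 for Zfp809 (0.0109), 0.62 for Zfp324 (0.0268) and 0.63 for Zfp266 (0.0348). Zfp961 and Zfp422 kept the call under every alternative tried, and Zfp275 under all but a pseudocount of 1. Zfp212 lost it with that pseudocount and without replicate 3 of the knockout with LPS. Zfp809, Zfp324 and Zfp266 lost it with median-ratio scaling. In RAW264.7 the interaction was -0.69 for Zfp710 (adjusted p = 0.0202), 0.86 for Zfp608 (0.0250) and 0.82 for Zfp799 (0.0432), and each lost its call without several single libraries. Zfp608 was at most 0.01 FPKM in all libraries labelled knockout, so its value is set by the wild-type libraries. Zfp61 (0.83), Zfp970 (0.62) and Zfp213 (-0.62) were also called in BMDMs and are listed after their values were seen. With 3 libraries per group, single libraries were not tested for standing apart.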

How the results depend on the processing

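For RAW264.7 labelled knockout against wild type with LPS, 40 members were higher with a pseudocount of 1 and 110 with TPM, 2 were lower with a pseudocount of 1, and the median was 0.23 and 0.59. For LPS in RAW264.7 labelled knockout, 41, 36 and 42 rose with median-ratio scaling, edgeR and DESeq2, 30, 31 and 32 fell (33 with a pseudocount of 1), and the median turned to 0.10, 0.11 and 0.12. For RAW264.7 with PBS, 58 were higher with edgeR and 56 with DESeq2, lower were 1 with a pseudocount of 1, 3 with the filter and 2 with TPM, and the median was 0.22 with a pseudocount of 1 and 0.54 with TPM. For LPS in wild-type RAW264.7, 3 rose with a pseudocount of 1 and 14, 17 and 17 with median-ratio scaling, edgeR and DESeq2, 26, 23, 25 and 22 fell in that order, and the median was 0.04 with the last 3. The RAW264.7 interaction had 1 higher with a pseudocount of 1, the filter, TPM, median-ratio scaling, edgeR and DESeq2, and 0 lower with TPM. For BMDM knockout against wild type with LPS, 1 was higher with a pseudocount of 1 and 8 with median-ratio scaling, 2, 9, 10 and 10 were lower with a pseudocount of 1, median-ratio scaling, edgeR and DESeq2, and the median was 0.09, 0.03, 0.04 and 0.03. For LPS in knockout BMDMs, 22, 23 and 24 rose and 108, 111 and 108 fell with median-ratio scaling, edgeR and DESeq2, with medians of -0.45, -0.51 and -0.49 (-0.70 with a pseudocount of 1, -1.18 with TPM). In wild-type BMDMs 24, 23 and 25 rose and 88, 99 and 93 fell, with medians of -0.48, -0.55 and -0.52 (-0.77 and -1.33). For BMDM with PBS edgeR called 1 higher, and the median was -0.02 with median-ratio scaling, edgeR and DESeq2. The BMDM interaction had 1 higher with a pseudocount of 1 and 3 with median-ratio scaling, and 1, 5, 6 and 6 lower with a pseudocount of 1, median-ratio scaling, edgeR and DESeq2. The cause was not tested. TPM and median-ratio scaling change the library scale by construction. Shares over all genes are not given for the pseudocount of 1, the filter, TPM, edgeR and DESeq2, so those counts describe the members alone.

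For DESeq2, edgeR and median-ratio scaling in turn, LPS in wild-type BMDMs turned positive for Zfp871 (0.21, 0.17 and 0.20), Zfp609 (0.19, 0.16 and 0.18), Zfp598 (0.06, 0.03 and 0.06), Zfp410 (0.11, 0.08 and 0.11) and Zfp622 (0.14, 0.11 and 0.14), and in knockout BMDMs for Zfp622 (0.01 with DESeq2 and median-ratio scaling). With 1 library left out, LPS in RAW264.7 labelled knockout had 8 to 19 rises and a median of -0.24 to -0.06. RAW264.7 with PBS had 15 to 85 higher and 2 to 5 lower, and the RAW264.7 interaction 0 to 3 and 0 to 2. BMDMs with PBS had 0 to 1 higher, the 1 without replicate 1 or 2 of the knockout with LPS, and the BMDM interaction 4 to 9 higher, the 4 without replicate 2 of the knockout with PBS. Samples with the same replicate number did not deviate together (correlations -0.0395 to 0.0844 in RAW264.7 and -0.0579 to 0.0711 in BMDMs). With the replicate number as a block, 22 members in place of 36 were higher in RAW264.7 with PBS and 0 in the RAW264.7 interaction. Of 221 pairs of a named member and a comparison, 119 kept direction and call under all 19 settings. Depth limits the low members, as the median count per member was between 90 and 291 in a library.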
